A study of Mus musculus with 4 samples.

Results

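The 9 genes described here belong to intestinal fluid secretion, and they were measured in stem cells and progenitors of old mice on 2 diets. They are Cftr, Slc12a2, Kcnq1, Kcne3, Kcnn4 and Clcn2, which move chloride and potassium across the epithelium, and Gucy2c, Guca2a and Guca2b, the receptor of the guanylin system and its hormones. They were chosen by name, and all 9 of 9 symbols were found, each with 1 Ensembl ID, among the 38124 gene IDs of the count tables. The cells were intestinal epithelial cells of C57BL/6 male mice aged 71 weeks, sorted by GFP brightness. The bright cells (GFP-high) are labelled intestinal stem cells and the dim ones (GFP-low) progenitors. A first set of mice ate a high-fat diet, HFD below, and the control set a diet given as normal, under titles that carry the label WT. Poly(A)-selected RNA of 200K sorted cells from 2 to 5 pooled mice made 1 library for each diet and fraction, 4 libraries in all. No group therefore has a replicate. The sources used here do not name the gene that drives GFP, other alleles of the mice or what the diets contained, and do not say whether the same mice gave both fractions.

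Chloride secretion draws water into the gut lumen. The cotransporter NKCC1, the product of Slc12a2, loads chloride into the cell at its basolateral side, potassium channels (the KCNQ1 pore with its KCNE3 subunit, and the calcium-activated KCNN4) keep the cell negative inside, and the apical channel CFTR lets chloride out. Guanylin (Guca2a) and uroguanylin (Guca2b) are peptide hormones that epithelial cells secrete into the lumen. They bind guanylate cyclase C, the product of Gucy2c, on the apical membrane, and the cyclic GMP it makes activates CFTR and holds back sodium uptake. Chloride secretion is classically a task of the crypt and sodium chloride absorption one of the villus.

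The libraries held 4677389 to 6207080 counts. Levels are given as CPM, counts scaled to 1000000 with library sizes corrected by edgeR's TMM method, and their intervals are exact 95% Poisson intervals, which cover counting error only. Of 8 stem cell markers all 8 passed the test as higher in GFP-high cells, and Lgr5, an R-spondin receptor and stem cell marker, stood at 241 and 242 CPM there against 12.7 and 12.5 CPM in GFP-low cells (control and HFD). Markers of differentiated cells lay on the other side. The summed level of 8 goblet genes was 3589 and 3184 CPM in GFP-high (control, HFD) and 40660 and 17846 CPM in GFP-low. That of 11 enterocyte genes was 891 and 1150 CPM in GFP-high and 3433 and 7165 CPM in GFP-low, that of 7 Paneth genes was 785 and 451 CPM in GFP-high and 2302 and 1110 CPM in GFP-low, and that of 10 enteroendocrine genes was 74.2 and 102 CPM in GFP-high and 1231 and 538 CPM in GFP-low. The GFP-low fraction, labelled progenitors, thus held more RNA of genes that mark differentiated cells. The summed level of 5 cycling genes was 2019.3 and 2002.5 CPM in GFP-high (control, HFD) and 1407.1 and 1234.5 CPM in GFP-low. Of these 5 genes 4 were called higher in GFP-high and none lower. Leukocyte markers were low, with 83 to 146 counts over 7 genes (summed level 12.4 to 33.1 CPM) and no count of Ptprc, the pan-leukocyte gene. Itgam, the only 1 of them tested, was called lower in GFP-high (log2 ratio -1.24). Stromal and endothelial markers had 15 to 119 counts over 6 genes. Vim, the only 1 of these tested, was called lower in GFP-high (log2 ratio -3.59). In such sorted bulk RNA, fewer cells of a type and less RNA per cell cannot be told apart.

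Both hormone genes were much lower in stem cells, the receptor gene did not differ between the fractions beyond its error, and the 5 genes of basolateral loading, potassium exit and CFTR were higher in stem cells. edgeR called 5 members higher in GFP-high (Slc12a2, Kcnq1, Kcne3, Cftr and Kcnn4) and 3 lower (Guca2a, Guca2b and Clcn2), and did not call Gucy2c. Of all 10694 genes tested, 22.0% were called higher and 25.6% lower. Scaling by library totals in place of TMM moved the share of calls that were higher from 46.2% to 65.6% over all genes, and the members' counts stayed at 5 and 3. All 9 members passed the filter on low counts (at least 20 counts in at least 2 libraries), with the lowest single count, 54, in Guca2b. The median fitted log2 ratio of the 9 was 0.36, beside 0.00 over all genes tested, and it hides values from -2.68 to 1.97. For diet no member was called, where 2.96% of all genes were called higher and 3.5% lower under HFD.

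**Figure D1:**
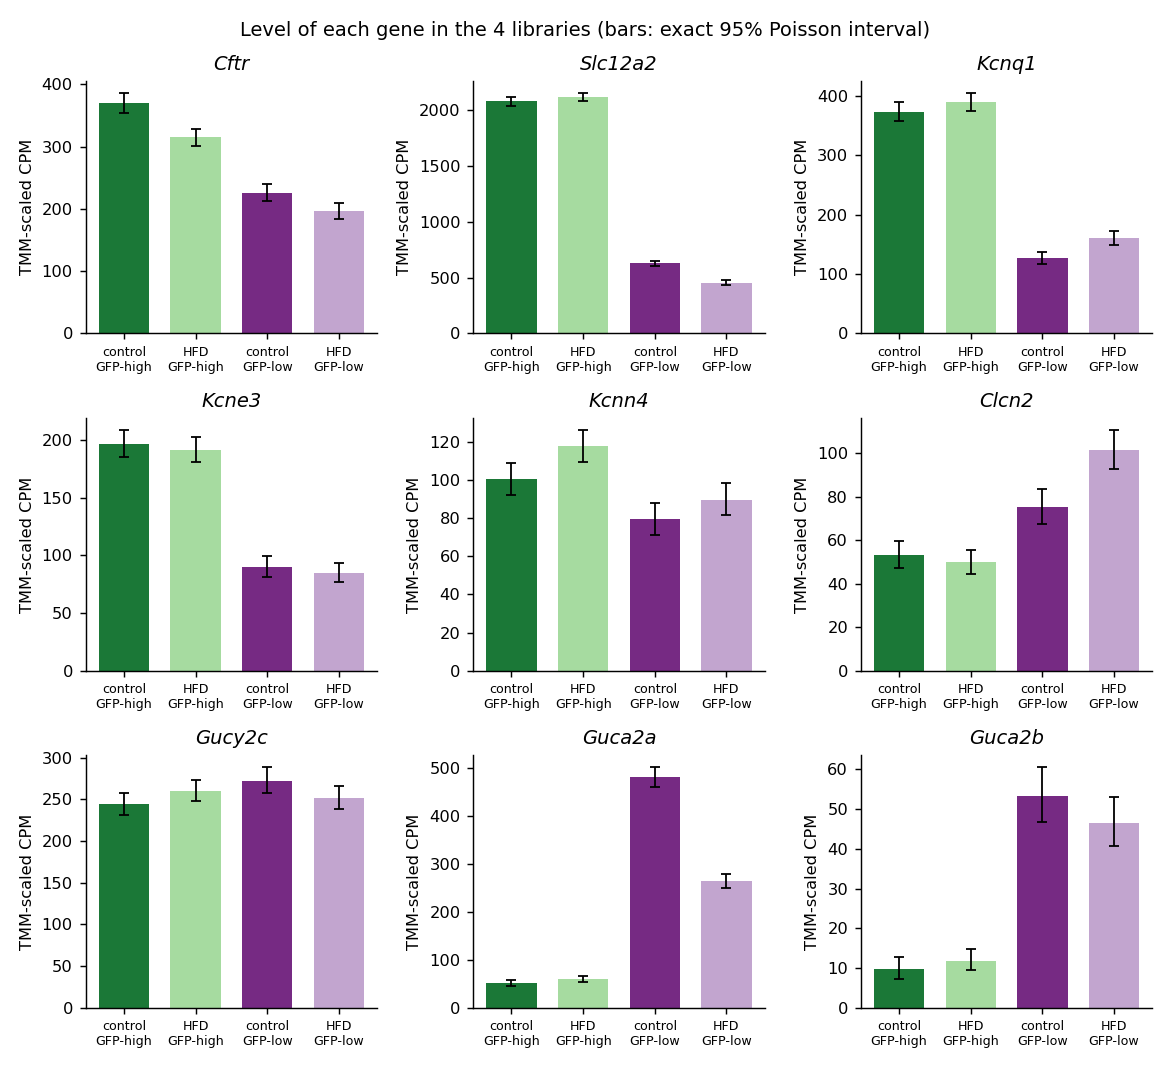
TMM-scaled CPM (vertical axis, from 0, a separate scale in each panel) of the 9 genes in the 4 libraries, with bars for the level and error bars for the exact 95% Poisson interval. Slc12a2, Kcnq1, Kcne3, Cftr and Kcnn4 are higher in both GFP-high libraries than in both GFP-low libraries, and Guca2a, Guca2b and Clcn2 are lower in both. The share of all genes ordered in such a way is not given, so this order alone sets no gene apart.

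The hormones are described first. Guca2a and Guca2b lie near each other on chromosome 4 (GRCm38, GENCODE release M21), Guca2a at 119637704 to 119639471 on the plus strand and Guca2b at 119656607 to 119658954 on the minus strand, with 17135 bases between them. Each has 3 coding exons, and the coding sequences hold 116 and 106 codons. The active peptide is cut from the end of a longer precursor. The last 15 codons before the stop, all in 1 exon of each gene, are shown because they encode the part that reaches the receptor. They lie at chr4:119639228-119639272 (plus strand) and chr4:119656795-119656839 (minus strand), from the GENCODE transcripts, with the cysteine codons in capitals.
Guca2a: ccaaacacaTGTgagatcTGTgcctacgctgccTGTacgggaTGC
Guca2b: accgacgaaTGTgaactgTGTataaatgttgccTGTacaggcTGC
The 2 stretches share 29 of 45 bases, and 8 of the 15 codons encode the same residue. All 4 cysteine codons stand at the same places, the fourth, seventh, twelfth and fifteenth codon shown. These cysteines form the disulfide bonds of the hormones.

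Guca2a was counted 281 times in the control GFP-high library and 402 times in HFD GFP-high, against 2121 and 1306 times in control and HFD GFP-low. On the CPM scale these are 50.9, 60.2, 481 and 264. Both GFP-low libraries lay above both GFP-high libraries. In the fit over the 4 libraries Guca2a was 6.39-fold lower in GFP-high cells (log2 ratio -2.68 ± 0.40 SE, edgeR adjusted p = 0.0384). Its SE was the largest of the 9, because the gap between the fractions differed between the diets, 9.37-fold on control diet and 4.36-fold under HFD, and the model counts that difference as spread. With a filter of 100 counts the same log2 ratio had an adjusted p of 0.0567, so the call was lost.

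Guca2b was scarce in stem cells, with 54 and 79 counts (9.77 and 11.8 CPM, control and HFD) in GFP-high and 235 and 230 counts (53.2 and 46.5 CPM) in GFP-low. Here too the fractions did not overlap. The share of all genes without such overlap is not given here, so a lack of overlap alone sets no gene apart. It was 4.57-fold lower in GFP-high cells (log2 ratio -2.19 ± 0.17 SE, edgeR adjusted p = 3.62e-08), 5.23-fold on control diet and 3.81-fold under HFD. Per kb of exon, which allows levels of different genes to be compared, Guca2a stood above Guca2b in every library, at a ratio of 7.62 (interval 5.68 to 10.4) and 7.45 (5.84 to 9.61) in GFP-high and 13.2 (11.5 to 15.2) and 8.32 (7.22 to 9.61) in GFP-low, control first. The control GFP-low library had the highest ratio, and its interval overlapped none of the other 3.

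The genes whose pattern over the 4 libraries was most like that of Guca2a, by Euclidean distance of centred log2 levels among 8708 named protein-coding genes, were Tff3 (distance 0.15), a trefoil peptide of goblet cells, and Hepacam2 (0.16). Tff3 was at 241 and 251 CPM in the GFP-high libraries and at 2193 and 1126 CPM in the GFP-low ones. For Guca2b the nearest were Cgref1 (0.13) and Cpeb4 (0.20). A distance over 4 libraries orders genes and says nothing of shared control. The summed levels of the goblet, enteroendocrine and Paneth genes given above were, like Guca2a, lower in GFP-high and, within GFP-low, lower under HFD. All 8 goblet genes, 7 of 10 enteroendocrine and 6 of 7 Paneth genes were called lower in GFP-high, beside 25.6% of all genes tested. The part of these cell types in the Guca2a difference was not tested.

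The promoters of both hormone genes are shown because the genes lie close together and were low in the same libraries, and that of Cftr because it was high where they were low. Each is the 250 bases before the RefSeq start (GRCm38.p6), written 5′ to 3′ on the gene's strand. Capitals mark matches, on either strand, to 6 motifs: the GATA motif AGATAA, the forkhead motif TGTTTAC, the CDX2 motif TTTATG, the HNF4 motif CAAAGTCCA, the TATA box TATAAA and the GC box GGGCGG. RefSeq windows were present for 6 of the 9 genes, and those of Slc12a2, Kcnq1 and Gucy2c are not shown.
Guca2a, chr4:119637482-119637731: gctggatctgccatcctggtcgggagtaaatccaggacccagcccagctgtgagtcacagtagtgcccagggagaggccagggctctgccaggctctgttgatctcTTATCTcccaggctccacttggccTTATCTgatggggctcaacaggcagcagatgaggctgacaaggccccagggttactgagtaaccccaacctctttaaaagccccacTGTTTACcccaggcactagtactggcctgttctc
Guca2b, chr4:119658946-119659195: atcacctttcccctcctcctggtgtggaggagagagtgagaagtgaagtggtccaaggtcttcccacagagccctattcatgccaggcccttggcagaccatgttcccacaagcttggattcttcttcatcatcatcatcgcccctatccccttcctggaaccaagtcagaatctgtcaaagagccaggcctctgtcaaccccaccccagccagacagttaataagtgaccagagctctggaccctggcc
Cftr, chr6:18170437-18170686: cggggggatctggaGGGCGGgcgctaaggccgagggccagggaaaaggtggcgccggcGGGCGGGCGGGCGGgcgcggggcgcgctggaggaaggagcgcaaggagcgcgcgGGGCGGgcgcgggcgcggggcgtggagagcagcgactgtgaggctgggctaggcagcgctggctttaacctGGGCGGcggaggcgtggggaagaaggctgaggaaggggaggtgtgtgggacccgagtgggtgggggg
The Guca2a window held the GATA motif in 2 places, both on the other strand, and the forkhead motif once, 34 to 28 bases before the RefSeq start. The GENCODE spans given above start upstream of the RefSeq start for both hormone genes, so the end of each window lies inside the span. Distances to the GENCODE start of Guca2a are thus shorter. Of 32817 such windows of all genes, 9.99% held the GATA motif and 3.16% the forkhead motif. The Guca2b window held none of the 6 motifs. Neither hormone gene's window held the GC box, which 32.7% of all windows did. The Cftr window held the GC box 6 times, 3 of them overlapping each other, and had a GC content of 76.4%, against 57.2% and 54.4% for Guca2a and Guca2b and a median of 52.4%. None of the 3 windows held the CDX2, HNF4 or TATA letters, which 10.8%, 0.384% and 12.4% of all windows hold. The windows of Kcnn4 and Clcn2 held the GC box once each, and 1 of the 2 windows of Kcne3 held it in 2 places. These are matches of letters and no evidence of binding.

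Gucy2c, the receptor, differed little between the libraries. It was at 245 and 261 CPM in the GFP-high libraries (control, HFD) and at 273 and 252 CPM in GFP-low, from 1204 to 1739 counts. The ranges of the fractions overlapped. Its fitted log2 ratio for fraction was -0.06 ± 0.10 SE (edgeR adjusted p = 0.672). With ± 2 SE the ratio lay between -0.25 and 0.14, so a difference as large as that of either hormone lies outside it. Scaling by library totals turned the sign to 0.14, where the median of all genes moved to 0.19. Gucy2c lies on chromosome 6 at 136697284 to 136781765 on the minus strand.

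Per kb of exon, Guca2a stood 1.39 times (interval 1.21 to 1.58) as high as Gucy2c in control GFP-high and 1.54 times (1.38 to 1.72) in HFD GFP-high. In GFP-low the ratio was 11.7 (10.9 to 12.6) on control diet and 6.98 (6.45 to 7.55) under HFD. The ratio of hormone to receptor message was thus lowest in the GFP-high libraries and highest in the control GFP-low library.

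Cftr, the apical anion channel, was at 369 and 315 CPM in the GFP-high libraries and at 226 and 196 CPM in the GFP-low ones (control, HFD), from 969 to 2102 counts. It was 1.62-fold higher in GFP-high cells (log2 ratio 0.70 ± 0.09 SE, edgeR adjusted p = 1.92e-05), with 1.63-fold on control diet and 1.60-fold under HFD. The gene spans 18170687 to 18322768 on the plus strand of chromosome 6. An antisense gene shares exon bases with it but had 0 counts in every library.

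Of the scaffolding and trafficking genes that act on CFTR, none was called higher in GFP-high. Their roles differ, so a shared direction does not say how the CFTR protein is handled. Among 12 genes 11 were tested, of which 10 were called lower in GFP-high and none higher, with a median log2 ratio of -0.66 beside 0.00 over all genes. The shares over all genes tested were 25.6% lower and 22.0% higher. Slc9a3r1, the PDZ scaffold NHERF1 that tethers CFTR to the cytoskeleton, was at 93.2 and 98.1 CPM in the GFP-high libraries and at 178 and 195 CPM in the GFP-low ones (log2 -0.96 ± 0.10 SE, edgeR adjusted p = 8.96e-07). Ezr, ezrin, which links such scaffolds to actin, was 1.75-fold lower in GFP-high cells (edgeR adjusted p = 4.13e-06). Slc9a3r2, the related scaffold NHERF2, had the lowest ratio of the list (log2 -1.69 ± 0.41 SE, edgeR adjusted p = 0.00303) from 9 to 25 counts. It passed the count filter only through the GFP-low libraries, where it was higher. Gopc, Rab11a, Myo5b, Stx3, Nedd4l, Rnf5 and Rnf185 were also called lower, and Myo6 was not (log2 -0.20 ± 0.09 SE, edgeR adjusted p = 0.0901). With library totals 8 were called lower, and DESeq2's Wald test called 4 of the 11. The summed enterocyte markers were also lower in GFP-high, and their part in these differences was not tested.

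**Figure D2:**
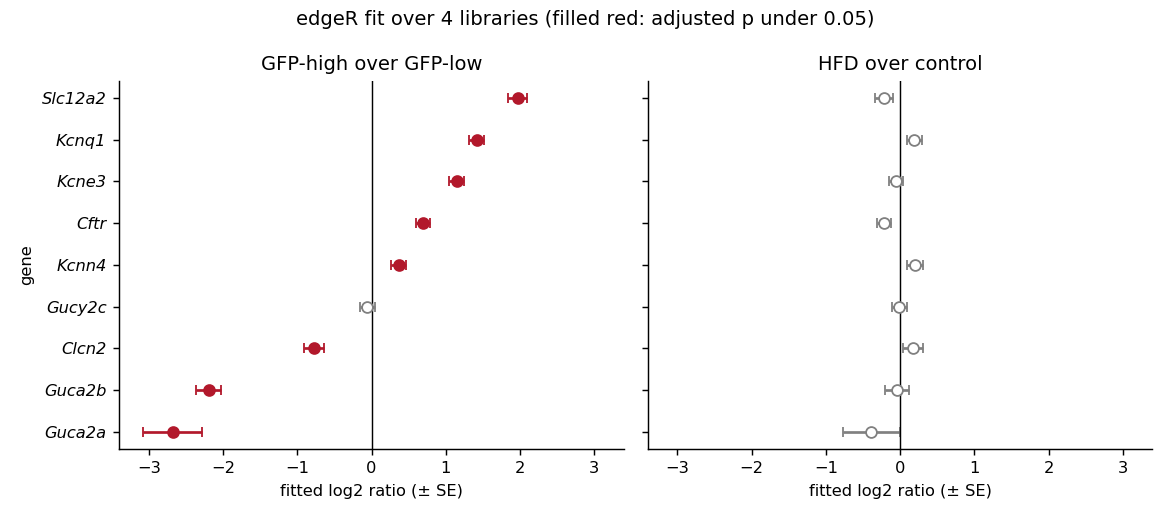
Fitted log2 ratios (horizontal axis, with SE) of the 9 genes for GFP-high over GFP-low and for HFD over control, from edgeR's fit over 4 libraries. Filled red points have an adjusted p under 0.05, namely 8 of 9 for fraction, from Guca2a at -2.68 to Slc12a2 at 1.97, and none for diet, where all points lie between -0.39 and 0.20.

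Slc12a2, the cotransporter, had the highest CPM of the 9 genes in all 4 libraries. It was counted 11482 and 14143 times in GFP-high and 2778 and 2252 times in GFP-low (control, HFD), or 2078, 2119, 629 and 456 CPM. It was 3.92-fold higher in GFP-high cells (log2 ratio 1.97 ± 0.13 SE, edgeR adjusted p = 3.66e-08), 3.30-fold on control diet and 4.65-fold under HFD. It made up 59.8% and 60.3% of the summed CPM of the 9 genes in GFP-high and 30.9% and 27.6% in GFP-low. Slc12a2 lies on chromosome 18 at 57878678 to 57946821 on the plus strand.

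Per kb of exon Slc12a2 stood 4.0 times (interval 3.82 to 4.20) as high as Cftr in control GFP-high and 4.78 times (4.57 to 5.01) in HFD GFP-high, against 1.98 (1.84 to 2.13) and 1.65 (1.53 to 1.78) in GFP-low. The entry route therefore changed more between the fractions than the exit channel did. The nearest patterns to that of Slc12a2 were Adgrf1 (distance 0.05) and Car12 (0.16), a membrane carbonic anhydrase, and the nearest to Cftr were Rnf169 (0.04) and Sufu (0.05).

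Kcnq1, the pore of the basolateral potassium channel, was at 373 and 389 CPM in the GFP-high libraries and at 127 and 160 CPM in the GFP-low ones. It was 2.67-fold higher in GFP-high cells (log2 ratio 1.42 ± 0.10 SE, edgeR adjusted p = 2.02e-08). Kcne3, the subunit that keeps this channel open in gut epithelium, was at 196 and 192 CPM in the GFP-high libraries and at 90.2 and 85.0 CPM in the GFP-low ones. It was 2.22-fold higher (log2 1.15 ± 0.10 SE, edgeR adjusted p = 1.4e-07). Of all pairs of the 9 genes these were the 2 with the most similar pattern (distance 0.41), followed by Kcnn4 with Gucy2c (0.47) and Cftr with Kcne3 (0.48). Per kb of exon Kcne3 stood 1.21 times (interval 1.12 to 1.30) and 1.13 times (1.06 to 1.21) as high as Kcnq1 in GFP-high, and 1.64 times (1.43 to 1.86) and 1.22 times (1.08 to 1.38) in GFP-low, control first.

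Both genes lie on chromosome 7, Kcnq1 at 143106362 to 143427042 and Kcne3 at 100176502 to 100184869, both on the plus strand. Kcnq1 shares exon bases with the antisense RNA Kcnq1ot1, and Kcne3 with another antisense gene. Neither antisense gene was among the counted IDs, and the strand setting of the counting is not stated in the sources used here, so their reads cannot be told apart from those of Kcnq1 and Kcne3. The nearest patterns were Fgfrl1 (0.07) and Fignl1 (0.10) for Kcnq1 and Trim24 (0.02) and Zdhhc1 (0.03) for Kcne3.

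Kcnn4, the calcium-activated potassium channel, showed the smallest called difference. It was at 100.5 and 118 CPM in the GFP-high libraries and at 79.5 and 89.8 CPM in the GFP-low ones (control, HFD), so the GFP-high libraries were the higher ones by a narrow margin. The fitted ratio was 1.29-fold (log2 0.36 ± 0.11 SE, edgeR adjusted p = 0.00961). DESeq2's Wald test gave an adjusted p of 0.212 and edgeR without a diet term 0.104, so the call was lost under both. Per kb of exon Kcnq1 stood 4.64 times (interval 4.22 to 5.11) and 4.13 times (3.81 to 4.48) as high as Kcnn4 in GFP-high, and 1.99 times (1.74 to 2.28) and 2.23 times (1.98 to 2.51) in GFP-low. Kcnn4 lies on chromosome 7 at 24370263 to 24386690 on the plus strand, and its nearest patterns were Mcat (0.02) and Igsf8 (0.02).

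Clcn2, a voltage-gated chloride channel that sits in the basolateral membrane of gut epithelium, went the other way from the rest of the channels. It was at 53.2 and 49.9 CPM in the GFP-high libraries and at 75.2 and 101 CPM in the GFP-low ones, from 294 to 501 counts. It was 1.71-fold lower in GFP-high cells (log2 ratio -0.77 ± 0.13 SE, edgeR adjusted p = 0.000339), 1.41-fold on control diet and 2.02-fold under HFD. It lies on chromosome 16 at 20702964 to 20717746 on the minus strand and shares exon bases with 2 genes on the other strand, Polr2h, which had 63 to 120 counts, and Fam131a, which had at most 2. The patterns nearest to it were those of Evpl (0.04) and Ganc (0.04), and to that of Gucy2c those of Api5 and Sltm (both 0.01).

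**Figure D3:**
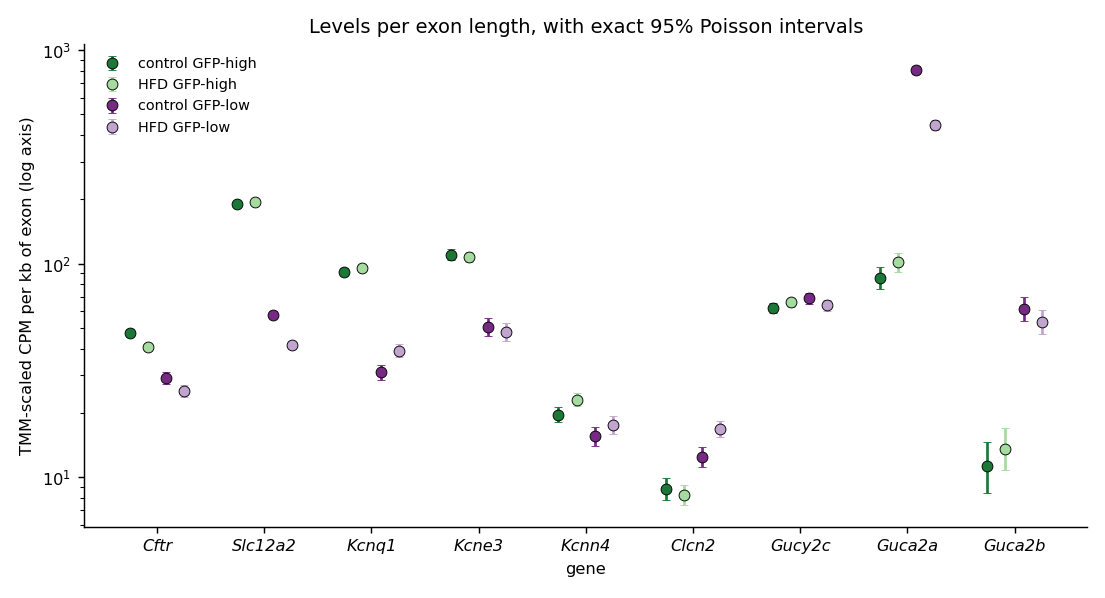
TMM-scaled CPM per kb of exon (log axis) of the 9 genes in the 4 libraries, with exact 95% Poisson intervals. Slc12a2 is the highest gene in both GFP-high libraries (190 and 194), while Guca2a is the highest in both GFP-low libraries (809 and 445).

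The order of the levels per kb differed between the fractions. In both GFP-high libraries Slc12a2 came first (190 and 194 CPM per kb, control and HFD) and Kcne3 second (110 and 108). Kcnq1 and Guca2a followed, and their intervals overlapped in both libraries, as did those of Kcne3 and Guca2a under HFD. Gucy2c (61.8 and 65.8), Cftr (47.6 and 40.6) and Kcnn4 (19.6 and 23.0) came next, each apart from its neighbours. Guca2b (11.2 and 13.6) and Clcn2 (8.84 and 8.28) came last and overlapped on control diet. In GFP-low Guca2a led with 809 and 445 CPM per kb, apart from all others, followed by Gucy2c with 68.9 and 63.7. From Gucy2c on, neighbours in the order overlapped down to Kcne3 in the control library (Gucy2c, Guca2b, Slc12a2 and Kcne3, 68.9 to 50.7) and down to Kcnq1 in the HFD library (Gucy2c, Guca2b, Kcne3, Slc12a2 and Kcnq1, 63.7 to 39.1).

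Genes around the secretion machinery were compared between the fractions by list. In the list of second messenger genes 14 of 16 were tested, 4 were called higher and 2 lower in GFP-high, and 8 were not called (median log2 -0.07), near the share over all genes, 22.0% higher and 25.6% lower. Prkacb, a catalytic subunit of protein kinase A, which phosphorylates CFTR, was 3.12-fold higher in GFP-high cells (log2 ratio 1.64 ± 0.18 SE, edgeR adjusted p = 2.04e-06), while Prkaca, the other main catalytic subunit, was 1.30-fold lower (edgeR adjusted p = 0.0109). Abcc4, an exporter of cyclic nucleotides, was 2.76-fold higher from 10 to 70 counts (edgeR adjusted p = 0.00225). Chrm3, the muscarinic receptor of nerve-driven secretion, was 2.20-fold higher from 9 to 50 counts (edgeR adjusted p = 0.0178), and Adcy6, an adenylyl cyclase, 1.33-fold higher (edgeR adjusted p = 0.0019). Prkar2a, a regulatory subunit of protein kinase A, was 1.28-fold lower (edgeR adjusted p = 0.00559). Prkg2, the cyclic GMP-dependent kinase downstream of guanylate cyclase C, named here after its values were seen, missed the threshold (log2 ratio -0.06 ± 0.15 SE, edgeR adjusted p = 0.774). The calls on Prkaca and Prkar2a were lost with library totals, where no gene of the list was called lower, and DESeq2's Wald test called 2 higher and none lower.

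The absorptive genes had the lowest median of the 5 lists. Of 12 genes of sodium chloride absorption and bicarbonate handling 10 were tested, 7 were called lower in GFP-high and 1 higher, with a median log2 ratio of -1.49. Among all genes tested, 25.6% were called lower and 22.0% higher. Slc9a3, the sodium-hydrogen exchanger NHE3 that cyclic GMP inhibits, had 6 counts in each GFP-high library against 176 and 242 in GFP-low cells (log2 ratio -5.47 ± 0.26 SE, edgeR adjusted p = 1.74e-10). This gene passed the count filter through the GFP-low libraries only. The anion exchangers Slc26a6 and Slc26a3 were 10.5-fold and 4.48-fold lower in GFP-high cells (edgeR adjusted p = 6.45e-08 and 6.68e-08). Car4, a membrane carbonic anhydrase, was 12.3-fold lower (edgeR adjusted p = 7.24e-12), and Scnn1a, a subunit of the epithelial sodium channel, 4.02-fold lower (edgeR adjusted p = 0.000113). Slc9a2 and Slc4a7, carriers of sodium with protons and with bicarbonate, were 1.95-fold and 1.48-fold lower (edgeR adjusted p = 3.69e-05 and 0.00107). Aqp1, a water channel, went the other way and was 2.67-fold higher (edgeR adjusted p = 1.12e-08). The enterocyte marker sum was lower in GFP-high in the same libraries, and its part in these differences was not tested.

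In the list of other secretory channels and basolateral entry 13 of 18 genes were tested, with 4 called higher and 6 lower (median log2 -0.21). Over all genes tested, 22.0% were called higher and 25.6% lower. Stk39, the kinase SPAK that activates NKCC1, was 1.53-fold higher in GFP-high cells (edgeR adjusted p = 0.000198), and the kinases above it, Wnk1 and Wnk4, were 1.32-fold and 1.30-fold higher (edgeR adjusted p = 0.00283 and 0.0229). Oxsr1, another kinase of the list, named here after its values were seen, was not called (log2 ratio -0.07 ± 0.11 SE, edgeR adjusted p = 0.658). Atp1b3, a beta subunit of the sodium pump, was 1.27-fold higher (edgeR adjusted p = 0.0492), a call near the threshold. Those lower in GFP-high included Clca1, a protein secreted by goblet cells (18.5-fold), the potassium channels Kcnma1 (3.24-fold) and Kcnk5 (1.75-fold), Fxyd3, a regulator of the sodium pump (2.22-fold), and the anion exchanger Slc4a2 (1.41-fold), with edgeR adjusted p from 0.000585 to 0.02 for Kcnk5 and Clca1. Kcnma1 passed the count filter only through the GFP-low libraries, with 46 and 30 counts there against 16 and 14 in GFP-high (control, HFD). Among the 5 genes below the count filter was Ano1, the calcium-activated chloride channel, with 6 to 18 counts, named here after its values were seen. DESeq2's Wald test made 1 call upward and 4 downward in this list.

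Among 12 transcription factors of the gut epithelium 2 were called higher and 4 lower in GFP-high (median log2 -0.04), which together is near the share over all genes (22.0% higher and 25.6% lower). Hnf4g, a nuclear receptor of the enterocyte program, was 3.39-fold lower (log2 -1.76 ± 0.11 SE, edgeR adjusted p = 5.89e-09). Gata4 and Foxa3 were both 1.36-fold lower (edgeR adjusted p = 0.00164 and 0.0225) and Gata6 1.18-fold higher (edgeR adjusted p = 0.0488). With library totals this list turned to 4 higher and 2 lower, and with DESeq2's Wald test to 1 lower.

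**Figure D4:**
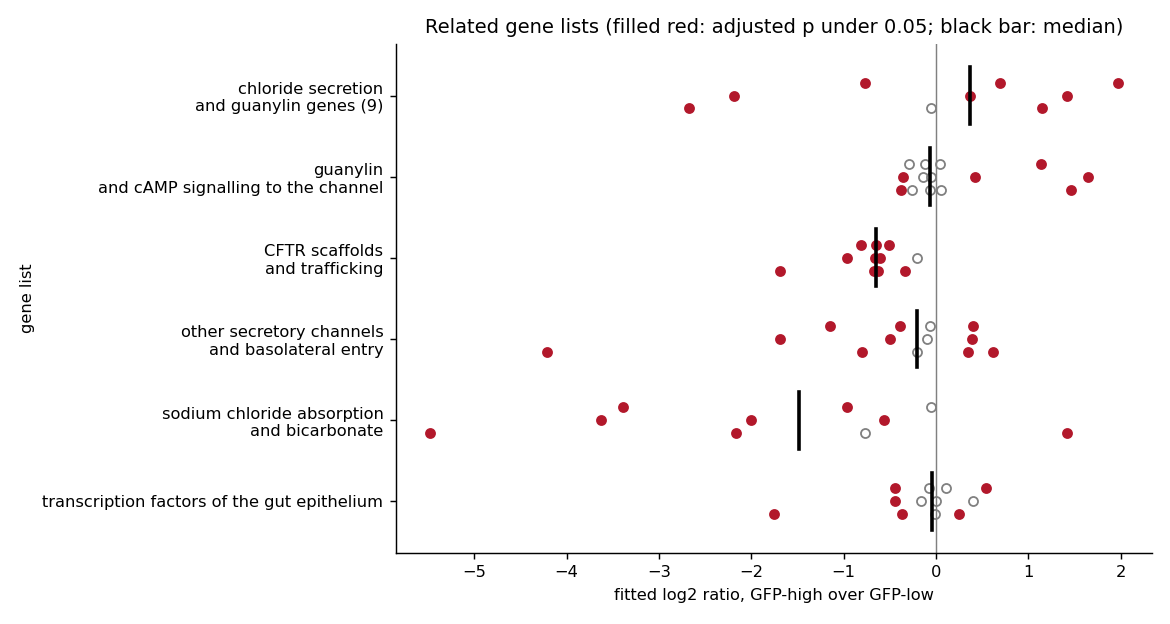
Fitted log2 ratios of GFP-high over GFP-low (horizontal axis) for the tested genes of the 9 and of 5 related lists, 1 point per gene, shifted up or down only for display. Filled red points have an adjusted p under 0.05 and the black bar is the list median, which is -0.66 for the CFTR scaffolds and -1.49 for the absorption genes.

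The diets were compared over both fractions in the same fit. None of the 9 genes was called, by edgeR or by DESeq2's Wald test, and 1 had an unadjusted edgeR p under 0.05 (none by DESeq2). That 1 was Cftr, at -0.22 ± 0.09 SE on the log2 scale (edgeR adjusted p = 0.204), lower under HFD in both fractions by nearly the same ratio, -0.23 (count interval -0.32 to -0.14) in GFP-high and -0.20 (-0.33 to -0.08) in GFP-low. Kcnn4 was at 0.20 ± 0.11 SE (edgeR adjusted p = 0.297) and Kcnq1 at 0.19 ± 0.10 SE (edgeR adjusted p = 0.319). Gucy2c was the closest to 0, at -0.01 ± 0.10 SE (edgeR adjusted p = 0.974), with ± 2 SE from -0.20 to 0.19. For the other members ± 2 SE ran from -0.46 to 0.03 for Slc12a2, -0.25 to 0.14 for Kcne3, -0.09 to 0.45 for Clcn2, -1.16 to 0.38 for Guca2a and -0.37 to 0.28 for Guca2b. A 2-fold diet difference common to both fractions lies outside these ranges for all members but Guca2a. The ranges rest on 1 residual degree of freedom and hold no spread between pools that both fractions share. They therefore set no limit on a diet difference over mice. If the same mice gave both fractions, these p-values are too small, and diet cannot be told apart from other differences between the pools.

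Of the related lists, 1 signalling gene, 1 gene of the other channels, 2 absorption genes, 1 transcription factor and no scaffold gene were called for diet, shares to be read against the 2.96% higher and 3.5% lower of all genes. In the absorption list Car4 (log2 0.56 ± 0.12 SE, edgeR adjusted p = 0.00996) and Aqp1 (0.36 ± 0.10 SE, edgeR adjusted p = 0.0335) rose under HFD, and among the transcription factors Hnf4g rose (0.57 ± 0.11 SE, edgeR adjusted p = 0.00391). Pde4d, a cyclic AMP phosphodiesterase, fell (-0.60 ± 0.17 SE, edgeR adjusted p = 0.0427), as did Wnk1 (-0.34 ± 0.10 SE, edgeR adjusted p = 0.0434). DESeq2's Wald test called none of these 5. Of the 11 enterocyte markers 5 were called higher under HFD (median log2 0.86), with a summed level of 3433 CPM in control and 7165 CPM in HFD GFP-low, and their part in the differences of Car4, Aqp1 and Hnf4g was not tested. No scaffold gene of the 11 tested was called for diet by either tool, with 1 at an unadjusted edgeR p under 0.05. The list extremes for diet that were not called included Car2 (1.15), Scnn1a (-0.47), Chrm3 (0.65), Abcc4 (-0.84), Kcnma1 (-0.67), Slc9a3r1 (0.11), Myo5b (-0.32) and Foxa3 (-0.48), all log2 ratios.

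Within each fraction HFD and control were set side by side with 1 library each, so these ratios have no replicate check. In GFP-high stem cells all 9 genes lay within a log2 ratio of -0.23 (Cftr) and 0.26 (Guca2b), and none reached 2-fold, where 2.32% of 10249 genes did. In GFP-low cells none reached 2-fold either, where 4.22% of 10296 genes did. Guca2a came closest, 1.82-fold lower under HFD (log2 -0.86, count interval -0.96 to -0.76). Slc12a2 was 1.38-fold lower (-0.47, interval -0.55 to -0.39) and Clcn2 1.35-fold higher (0.43, interval 0.23 to 0.64). Kcnq1 was 1.26-fold higher (0.33, interval 0.18 to 0.49).

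The difference of these 2 diet ratios, GFP-high minus GFP-low, was largest for Guca2a, at 1.10 on the log2 scale (counting interval 0.86 to 1.34), and it was the only 1 of the 9 past 2-fold, where 3.84% of 10686 genes were. It was 0.49 for Slc12a2 (0.41 to 0.58), -0.52 for Clcn2 (-0.82 to -0.22) and -0.27 for Kcnq1 (-0.45 to -0.10). For Guca2b it was 0.46 with an interval from -0.11 to 1.02, so a difference in either direction was within counting error. For Gucy2c it was 0.20 (0.05 to 0.36). For Cftr, Kcne3 and Kcnn4 it lay between -0.03 and 0.05. These intervals cover counting error only, and no test of the difference can be made with 1 library in each group. Beside the Guca2a values stand the goblet marker sums given above, which were 40660 CPM in control GFP-low and 17846 CPM in HFD GFP-low. All 8 goblet genes had a difference of diet ratios close to that of Guca2a, from 0.93 (Spink4) to 1.20 (Zg16). Among the enteroendocrine genes it ran from -0.92 (Sct) to 2.91 (Tph1) and among the Paneth genes from -0.04 (Lyz1) to 1.09 (Mmp7). For the diet term over both fractions 0 of 8 goblet, 2 of 10 enteroendocrine and 6 of 7 Paneth genes were called, all lower. Of all genes tested 3.5% were called lower under HFD. The part of these cell types in the Guca2a difference was not tested.

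**Figure D5:**
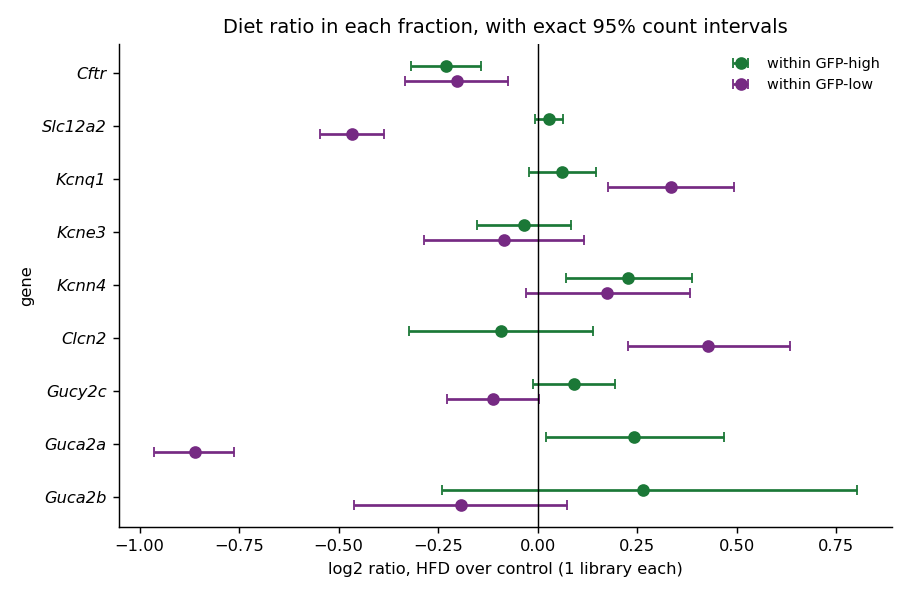
Log2 ratio of HFD over control (horizontal axis) of the 9 genes within GFP-high and within GFP-low, 1 library each, with exact 95% count intervals. Guca2a lies at 0.24 in GFP-high and at -0.86 in GFP-low, the widest gap of the 9, while the paired points of Cftr, Kcne3 and Kcnn4 nearly coincide.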

How the data were processed

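RNA was sequenced from 4 pools of sorted mouse cells with strand-specific dUTP libraries, per the labels' protocols. The deposited values are raw read counts per Ensembl gene, made by the authors with cutadapt, TopHat 1.4.1 and HTSeq on GRCm38/mm10, per the submitters' processing notes. Annotation release and strand setting were not given in the sources used here. Symbols matched 36345 of 38124 IDs, and positions and exon lengths came from GENCODE M21 on GRCm38.

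Genes with at least 20 counts in 2 libraries (10694) were tested with edgeR 4.0.16 (R 4.3.3), TMM factors, robust quasi-likelihood F-tests, two-sided, with diet and fraction as terms and Benjamini-Hochberg adjustment over all genes, threshold 0.05. This leaves 1 residual degree of freedom. The p-values therefore reflect no more than how these 4 libraries vary, part of which may be technical. DESeq2 1.42.0 was an alternative. SE is the log2 ratio over the root of F. Ratios of single libraries used CPM + 0.5, and 2-fold counts needed 5 CPM in a library. Totals of 4677389 to 6207080 counts put the limit of a 0 count at 0.483 to 0.641 CPM. The members and lists were chosen with earlier results of these data known. Named were all members, called genes and extremes of each list, and the 2 nearest patterns of each member at 10 CPM or more. Some list genes covered by this rule are counted but not reported here by name.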

Additional observations from a re-analysis of the deposited data

Results flagged for a closer look

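The log2 ratio of HFD over control for Guca2a had opposite signs in the fractions. It was 0.24 in GFP-high (count interval 0.02 to 0.47) and -0.86 in GFP-low (interval -0.96 to -0.76), a difference of 1.10. The GFP-high interval ends near no change and covers counting error only, so a change of direction is not established. Prkg2, the cyclic GMP-dependent kinase, had the reverse signs, at -0.25 (interval -0.49 to -0.01) in GFP-high and 0.38 (0.12 to 0.66) in GFP-low, a difference of -0.63. Its GFP-high interval also ends near no change. The Prkg2 difference was under 2-fold, which 3.84% of 10686 genes passed. Slc26a6 (-0.93) and Fxyd3 (0.92) of the related lists had larger ones. With 1 library in each group neither the Guca2a nor the Prkg2 difference was tested.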

How the results depend on the processing

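For fraction, 8 members kept their direction under all 7 alternatives, and the calls lost were Kcnn4 (DESeq2, and without a diet term) and Guca2a (100-count filter). Gucy2c turned from -0.06 to 0.14 with library totals and 0.028 with upper-quartile factors. Within control diet its ratio of -0.16 turned to 0.013 with library totals. For diet, Guca2b turned from -0.04 to 0.0062 with DESeq2. No member was called for diet under any alternative. Over all genes, 5090 fraction calls became 2390 with DESeq2 and 2948 without a diet term, and library totals moved the share called higher in GFP-high from 46.2% to 65.6% of calls. The 691 diet calls became 189 with DESeq2, 1158 without a count filter and 0 without a fraction term (149 at an unadjusted p under 0.05). A pseudocount of 2 CPM moved the count of diet-by-fraction differences past 2-fold from 410 to 232. Fits without 1 library leave no residual degree of freedom in the model used. Ratios of single libraries within a diet moved by more than their counting interval for 12 values, all with library totals, and so did the Gucy2c ratio within control diet that changed sign. Depth limits Guca2b most, with 54 and 79 counts in GFP-high. No cause of these changes was tested. The labels carry no replicate numbers, so no replicate block was fitted. With the diet term in the model the fractions are compared within each diet, and the fit without that term is given above.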
